A study of Mus musculus with 65 samples.

Results

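Regulators of G protein signalling, the RGS proteins, were followed as 7 genes in single stem cells from old mice: Rgs1, Rgs2, Rgs10, Rgs14, Rgs16, Rgs18 and Rgs20. They were taken by name from the 18036 genes of the table, whose NCBI identifiers were matched to symbols through RefSeq. Their detection and level were described per cell and per biological repeat. The cells were long-term hematopoietic stem cells from bone marrow of SCL-tTAxH2B-GFP mice older than 20 months, sorted by surface phenotype as LSK cells (low in lineage markers, with Sca-1 and Kit) that carried CD150, had little or no CD34 and lacked Flk2 and CD48. In all of these mice, which were double heterozygous, an Scl-driven transactivator had switched on a histone H2B-GFP fusion protein, so a GFP-negative cell may have diluted the label by dividing or may never have made it. Cells still positive for GFP are called label-retaining here (37 cells, 9, 9, 10 and 9 in repeats 1 to 4), and GFP-negative cells non-label-retaining (28 cells, 8, 4, 6 and 10). Both kinds spent a night at 3% oxygen without growth factors before SMART-Seq v4 cDNA and hand-made Nextera XT libraries were prepared.

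A receptor coupled to a heterotrimeric G protein loads GTP onto the alpha subunit, which then parts from beta and gamma and acts on enzymes such as adenylyl cyclase and phospholipase C. RGS proteins shorten that signal, because their RGS domain speeds up the hydrolysis of GTP on the alpha subunit. In blood cells they are known for setting how strongly chemokine receptors such as Cxcr4, which holds stem cells in the marrow, drive migration. Rgs1, Rgs2, Rgs16 and Rgs18 belong to the small RGS proteins that hold little beyond the RGS domain. Rgs10 and Rgs14 form another branch, and Rgs20 belongs to the branch that favours the alpha subunit Gz.

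The values were estimated counts, and the total per cell over the genes of the table ran from 27954 to 20516069 (median 264894) in label-retaining and from 86.1 to 661078 (median 118056) in non-label-retaining cells. The 4 cells under 10000 counts were all non-label-retaining. Levels are given as CPM, a count divided by the cell's own total in this table times 1000000. Some libraries shared content: of 2080 pairs of cells, 4 had a correlation of log2(CPM + 1) over 0.9, against a median of 0.379. Those were all 3 pairs among label-retaining cells 20, 21 and 22 of repeat 3 (0.984, 0.964 and 0.964) and the pair of label-retaining cell 3 with non-label-retaining cell 3, both of repeat 1 (0.937). Results are given with all cells and, where they rest on those cells, without label-retaining cells 20 and 22 and non-label-retaining cell 3. No cell was left out for a correlation under 0.9. Such pairs included non-label-retaining cells 13 and 14 of repeat 3 (0.88). In label-retaining repeat 3 they included cell 23 with cells 20, 21 and 22 (0.83, 0.84 and 0.86) and cell 24 with cell 22 (0.78). Every library carries the same sequencing run and lane in the labels. Of 17 stem cell markers listed, 8 were in the table and 5 had a count. The transcription factor genes Hlf (31 label-retaining and 12 non-label-retaining cells), Meis1 (24 and 12) and Gata2 (24 and 10) were widely found. Fgd5 (1 and 1) and Hoxb5 (2 and 0) were hardly found. Slamf1, which encodes the CD150 used for the sort, had no count, and neither had Flt3 and Cd48, markers the sort excluded. No count was found for 5 of the 8 neutrophil and monocyte markers that the table holds (Mpo, Elane, Ltf, Csf1r and Fcgr3), and the summed level of the list over the repeats ran from 0 to 20.7 CPM. Of 4 T and NK cell markers 3 had no count, and the 1 mast cell and basophil marker in the table had none.

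Of the 7 genes, 5 were found in at least 10 cells and 2 hardly at all. Any count of Rgs1 was found in 53 of 65 cells, of Rgs2 in 44, of Rgs18 in 43, of Rgs20 in 42 and of Rgs10 in 22. Rgs16 had 3 counts in 1 label-retaining cell of repeat 2, and Rgs14 had none. With 0 of 65 cells, Rgs14 may have a count in up to 4.62% of such cells (3 cells, counting error only). This sets no limit on cells that express it, since Slamf1 had no count either. For each of the 5 genes the mean share of cells with a count was larger in the label-retaining group, but that held for 93.4% of all 3489 genes with a count in 10 or more cells, and no Rgs gene passed a test after adjustment over all genes.

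Rgs1, Rgs2 and Rgs18 are neighbours. On mouse chromosome 1 (RefSeq, GRCm38.p6, the mm10 build) Rgs2 lies at chr1:143999338-144004149, Rgs1 at chr1:144244669-144249104 and Rgs18 at chr1:144752683-144775427, all on the minus strand. Rgs13 and Rgs21 lie between them, and the 5 are the only protein-coding genes in 776 kb. Rgs13 and Rgs21 had no count in any cell. Rgs16 (chr1:153740353-153745468, plus strand) and Rgs20 (chr1:4909573-5070299, minus strand) lie elsewhere on that chromosome, Rgs10 on chromosome 7 (chr7:128373621-128419506, minus strand) and Rgs14 on chromosome 13 (chr13:55369732-55384687, plus strand).

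Promoter sequence is shown for Rgs2 and Rgs16, close relatives on one chromosome that differed most in detection among the genes with an entry in the RefSeq promoter table (44 cells against 1). Each run is the 250 bases before the RefSeq start, chr1:144004150-144004399 on the minus strand for Rgs2 and chr1:153740103-153740352 on the plus strand for Rgs16, written 5′ to 3′. Capitals mark exact matches, on either strand, to TATAAA (a core promoter element), to TGACG (the core of the cAMP response element), to CCAAT and to GGGCGG (the GC box).
Rgs2: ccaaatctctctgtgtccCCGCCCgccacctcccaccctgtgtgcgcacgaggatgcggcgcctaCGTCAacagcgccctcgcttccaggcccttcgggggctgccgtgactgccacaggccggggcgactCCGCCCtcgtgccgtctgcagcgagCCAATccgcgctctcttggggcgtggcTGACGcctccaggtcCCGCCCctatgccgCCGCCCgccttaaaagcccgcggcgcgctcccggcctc
Rgs16: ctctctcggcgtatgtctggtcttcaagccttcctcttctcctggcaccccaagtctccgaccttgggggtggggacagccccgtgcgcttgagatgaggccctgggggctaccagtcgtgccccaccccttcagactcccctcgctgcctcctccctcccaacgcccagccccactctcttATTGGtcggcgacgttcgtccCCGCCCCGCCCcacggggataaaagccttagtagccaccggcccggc
The Rgs2 window held 2 matches to the cAMP element core, 1 to CCAAT and 4 to the GC box. In the Rgs16 window there were 1 match to CCAAT and 2 overlapping GC boxes, and neither window held TATAAA. Among 32851 RefSeq promoter windows of this length the cAMP element core was found in 17.8%, CCAAT in 33.9%, the GC box in 32.7% and TATAAA in 12.4%. The matches describe letters and are no evidence of binding.

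Rgs2, a regulator known to act mainly on the Gq alpha subunit, was found in 31 of the 37 label-retaining cells and 13 of the 28 non-label-retaining cells. Its share of cells was 100%, 88.9%, 70% and 77.8% in label-retaining repeats 1 to 4, and 62.5%, 75%, 33.3% and 30% in non-label-retaining repeats 1 to 4. The label-retaining share was higher in 4 of 4 repeats, as it was for 29.1% of all genes, and the groups overlapped only where label-retaining repeat 3 fell below non-label-retaining repeat 2. The mean shares were 84.2% ± 13.1 and 50.2% ± 22.1 (SD, n = 4), a difference of 34.0 percentage points (exact two-sided permutation test over repeats, p = 0.0571, Benjamini-Hochberg adjusted over 3489 genes 0.377). The smallest p that 4 against 4 allows is 0.0286. With repeats paired by number, an exact sign-flip test gave p = 0.125, the smallest that 4 pairs allow. Without the cells that shared content the difference was 29.9 points (exact permutation p = 0.114). With 1 repeat left out at a time, the exact permutation p ran from 0.0286 to 0.143. The lowest came without non-label-retaining repeat 2 (42.2 points), 1 of the 2 repeats that made the overlap. Without label-retaining repeat 3, the other of them, the difference was 38.7 points (exact permutation p = 0.0571). Leaving out a repeat because it overlapped follows from the result and adds no support.

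Counting only cells with 10 or more Rgs2 counts, a rule that takes no account of depth, separated the groups. The shares were then 66.7%, 77.8%, 60% and 66.7% in label-retaining repeats and 37.5%, 25%, 33.3% and 0% in non-label-retaining ones. The mean difference was 43.8 points (67.8% ± 7.37 against 24.0% ± 16.8, exact permutation p = 0.0286, the smallest possible). Without the cells that shared content it was 40.0 points and the shares still did not overlap, as for 14.1% of all genes in that set. At this threshold, with all cells, 12.2% of all genes had shares free of overlap with the label-retaining repeats on top. The smallest adjusted p over all genes was 0.235 (permutation test). Rgs2 was the only 1 of the 7 genes in that class. Thinned to 10000 counts a cell, which leaves out the 4 shallower cells, its mean shares were 65.2% ± 7.80 and 43.9% ± 28.3, and non-label-retaining repeat 2 (77.0%) stood above every label-retaining repeat (exact permutation p = 0.257). At 100 CPM or more the mean shares were 65% ± 9.7 and 37.9% ± 30.3, a difference of 27.1 points (exact permutation p = 0.171). With any count but without the cells under 10000 counts, the difference was 23.6 points (exact permutation p = 0.286). Under both rules the label-retaining share was higher in 3 of 4 repeats.

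The level of Rgs2 in label-retaining cells ran from 0 to 44946 CPM with a median of 269, and in non-label-retaining cells from 0 to 9334 CPM with a median of 0. Of the label-retaining cells 13 reached 1000 CPM, against 3 of the non-label-retaining. Mean levels per repeat were 2618, 1919, 761 and 5495 CPM in label-retaining and 760, 109, 1565 and 21.0 CPM in non-label-retaining cells. The ranges overlapped through non-label-retaining repeat 3, where 1 cell held 96.0% of the Rgs2 counts, and 1 cell likewise held 88.7% of those of label-retaining repeat 4. Among cells at or above the median total of 189653 counts, Rgs2 had a count in 21 of the 22 label-retaining cells and 3 of the 11 non-label-retaining cells, and among the others in 10 of 15 and 10 of 17. That split was made after the values were seen and was not tested. It pooled cells over repeats, and depth went with repeat. Median totals were 1654517, 697583, 201268 and 164961 in label-retaining repeats 1 to 4. In non-label-retaining repeats they were 65358, 41004, 271753 and 201757. The deeper label-retaining cells included cells 20, 21 and 22, which shared content. Counts for other members among deeper cells were 20 and 9 (Rgs1), 13 and 1 (Rgs10), 18 and 5 (Rgs18) and 18 and 7 (Rgs20).

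**Figure D1:**
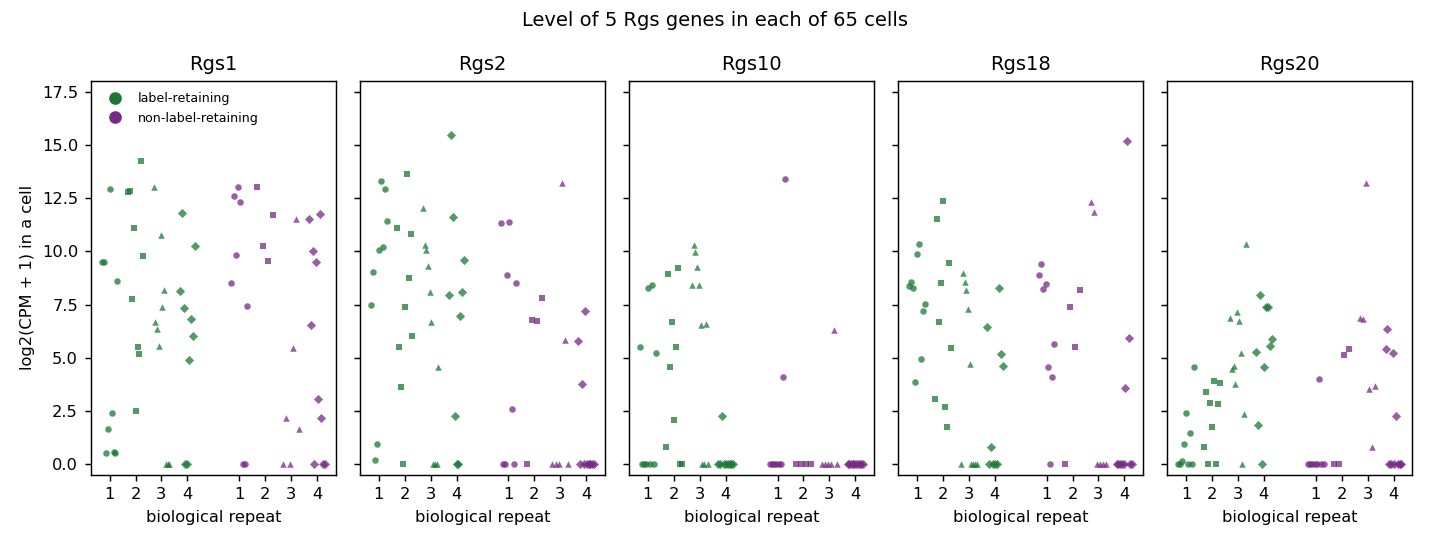
Level of Rgs1, Rgs2, Rgs10, Rgs18 and Rgs20 in each of 65 cells, as log2(CPM + 1), by biological repeat. Each point is 1 cell, green for label-retaining and purple for non-label-retaining, with 1 symbol per repeat. Rgs10 sits at 0 in 25 of 28 non-label-retaining cells, and single cells of Rgs10, Rgs18 and Rgs20 stand far above the others of their group.

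Rgs10, a regulator of Gi signalling known from microglia and platelets, was the least often found of the 5. It had a count in 19 of the 37 label-retaining cells and 3 of the 28 non-label-retaining cells. By repeat the label-retaining shares were 44.4%, 77.8%, 70% and 11.1%, and the non-label-retaining shares 25%, 0%, 16.7% and 0%. The label-retaining share was higher in 4 of 4 repeats, while label-retaining repeat 4, with 1 count in 1 of 9 cells, lay among the non-label-retaining values. The mean difference was 40.4 points (50.8% ± 30.1 against 10.4% ± 12.5, exact permutation p = 0.0857, adjusted over all genes 0.392). After thinning to 10000 counts it was 25.6 points (32.0% ± 25.2 against 6.38% ± 7.98, exact permutation p = 0.0857), and without the cells that shared content 37.6 points (exact permutation p = 0.0857). With 1 repeat left out at a time, the exact permutation p ran from 0.0286 to 0.143. The lowest came without label-retaining repeat 4 (53.7 points), the repeat that made the overlap, so it follows from the result and adds no support. With any other 1 repeat left out, the exact permutation p was 0.0857 or more.

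The mean level of Rgs10 over cells went the other way from its detection, by a difference of -188 CPM, whereas the difference was 128 CPM over sums of counts and 2.55 on the mean of log2(CPM + 1). Mean levels per repeat were 81.8, 139, 375 and 0.414 CPM in label-retaining and 1336, 0, 12.9 and 0 CPM in non-label-retaining cells. The 1336 CPM came from non-label-retaining cell 8, with 437 counts or 10672 CPM, which held 99.5% of the Rgs10 counts of its repeat. All other non-label-retaining cells were at or under 77.2 CPM, while 10 label-retaining cells reached 100 CPM. In label-retaining repeat 3, cells 20, 21 and 22, which shared content, were 3 of the 5 cells at 100 CPM or more (1258, 1004 and 613 CPM).

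Rgs18, known as a brake on platelet activation and abundant in megakaryocytes, was found in 28 of the 37 label-retaining cells and 15 of the 28 non-label-retaining cells. Its shares were 100%, 100%, 50% and 55.6% in label-retaining repeats and 87.5%, 75%, 33.3% and 30% in non-label-retaining ones. The label-retaining share was higher in 4 of 4 repeats, but the ranges overlapped widely (76.4% ± 27.4 against 56.5% ± 29.1, exact permutation p = 0.371, adjusted over all genes 0.596). With 10 or more counts the mean shares were 60% ± 30.3 and 16.5% ± 14.0, a difference of 43.5 points (exact permutation p = 0.0571). Thinned, the difference was 4.37 points (exact permutation p = 0.771).

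In level, Rgs18 was high in a few non-label-retaining cells. Mean levels per repeat were 401, 1051, 136 and 50.8 CPM in label-retaining and 237, 126, 1457 and 3703 CPM in non-label-retaining cells. Non-label-retaining cell 25 of repeat 4 held 12850 counts or 36955 CPM, which was 99.8% of the Rgs18 counts of that repeat, and cells 13 and 14 of repeat 3 held 5047 and 3694 CPM. Cells 13 and 14 had a correlation of 0.88, and whether their libraries share content was not tested. The highest label-retaining cell, cell 14 of repeat 2, reached 5334 CPM. Most of the 15 non-label-retaining cells with Rgs18 held few counts, and 5 of them held 10 or more.

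Rgs1, known in lymphocytes as a regulator that dampens chemokine-driven migration, was the most widely found, and with any count as the rule its shares were the nearest to equal between the groups. It had a count in 32 of the 37 label-retaining cells and 21 of the 28 non-label-retaining cells. The shares were 100%, 100%, 70% and 77.8% against 75%, 100%, 66.7% and 70% (86.9% ± 15.4 against 77.9% ± 15.1, exact permutation p = 0.4, adjusted over all genes 0.612). Relative to depth the direction turned: cells at 100 CPM or more were 20 of 37 and 15 of 28 (difference of mean shares -3.75 points, exact permutation p = 0.914), and after thinning the difference was -5.48 points (exact permutation p = 0.771). Mean levels were 1082, 4103, 1080 and 606 CPM in label-retaining and 2637, 3425, 503 and 823 CPM in non-label-retaining repeats. The highest cell was label-retaining cell 17, with 74964 counts or 19172 CPM. In label-retaining repeat 1, 5 of 9 cells had 1 to 9 Rgs1 counts in totals of 1610478 to 20516069, and the median of that repeat was 4.35 CPM. One non-label-retaining value of 8394 CPM rested on 2 counts in a cell with a total of 238.

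Rgs20 was found in 29 of the 37 label-retaining cells and 13 of the 28 non-label-retaining cells, mostly at low levels. Its shares were 55.6%, 77.8%, 90% and 88.9% against 12.5%, 50%, 100% and 40%, and the label-retaining share was higher in 3 of 4 repeats (78.1% ± 16.0 against 50.6% ± 36.5, exact permutation p = 0.257, adjusted over all genes 0.525). At 100 CPM or more there were 7 label-retaining and 3 non-label-retaining cells, and after thinning the mean shares were 23.3% ± 22.5 and 21.1% ± 17.3. The median level among cells with a count was 21.2 CPM in label-retaining and 36.0 CPM in non-label-retaining cells. Above 1000 CPM were only non-label-retaining cell 15 of repeat 3, with 2499 counts or 9578 CPM, 98.0% of the Rgs20 counts of that repeat, and label-retaining cell 28 of repeat 3, with 57.1 counts or 1282 CPM. Without non-label-retaining repeat 3 the difference of mean shares was 43.9 points (exact permutation p = 0.0571). With any other 1 repeat left out, the exact permutation p ran from 0.171 to 0.429.

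The Rgs20 counts differed in kind from those of the other members. Of its 41 values under 100 counts, 32 (78.0%) were not whole numbers within 0.01, against 1 of 36 for Rgs1, 1 of 28 for Rgs18, 0 of 24 for Rgs2 and 0 of 14 for Rgs10. Over 3088 genes with at least 10 such values the median share was 15%, and 7.84% of genes were at or above the share of Rgs20. Fractional values can arise when a read is divided among several genes, but how the authors counted is not given in the sources used here. Of the 4278 different 50-base stretches in the GENCODE M21 transcripts of Rgs20, 179 (4.18%) also occurred, on either strand, in transcripts of 554 other genes, while 0 stretches of Rgs1, Rgs2, Rgs10 or Rgs18 did. For Rgs16 8.34% did (with 1 other gene) and for Rgs14 0.705%. Among genes named below, shared stretches made up 0% for Gna11, 0.655% for Gngt1, 1.47% for Rgs9, 2.92% for Grk1 and 6.68% for Cxcr2. Of their values under 100 counts, 37.9%, 65.6%, 80.6%, 71.0% and 97.2% were not whole, in that order. The most widely shared 30-base stretch was an unbroken alternation of G and T in the 3′ UTR of 2 Rgs20 transcripts, found in transcripts of 2731 other genes. Whether shared reads account for the low Rgs20 counts was not tested, and Rgs20 is reported as uncertain for this reason.

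**Figure D2:**
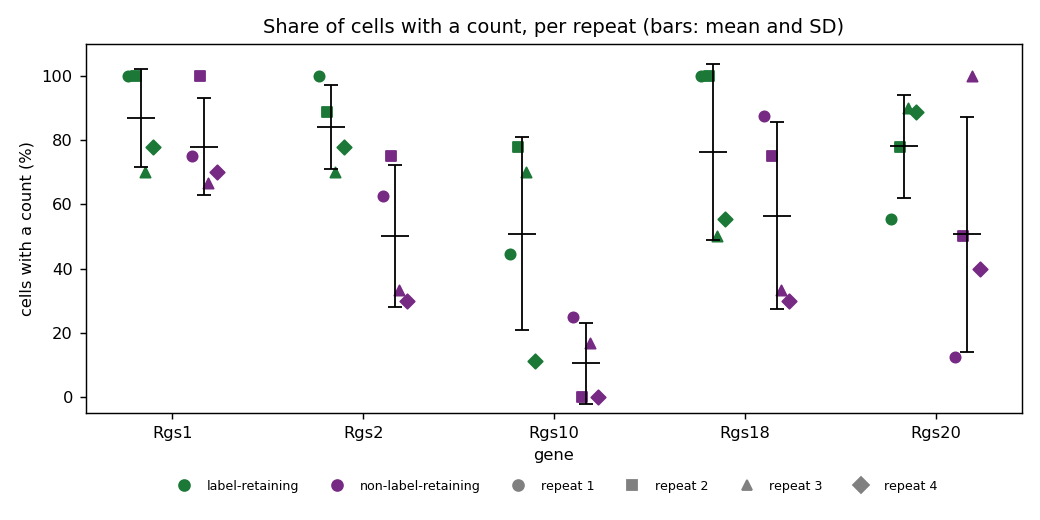
Share of cells with a count of each gene, in percent, for the 4 repeats of each group. Green points are label-retaining and purple points non-label-retaining repeats, symbols give the repeat, and black bars the mean and SD over 4 repeats. For Rgs2 the mean shares were 84.2% and 50.2%, for Rgs10 50.8% and 10.4%, and the 2 groups overlap for all 5 genes.

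With any count as the rule, 0 of the 7 Rgs genes had repeat shares that did not overlap between the groups, where 8.48% of the 3489 genes had such shares with the label-retaining repeats on top. Without the cells that shared content it was again 0, against 8.05% of all genes. With 1 repeat left out, 1 member was free of overlap without label-retaining repeat 3 (Rgs2, against 13.2% of all genes) or 4 (Rgs10, 13.6%) and without non-label-retaining repeat 2 (Rgs2, 14%) or 3 (Rgs20, 15.4%). The number was 0 without label-retaining repeat 1 (9.23%) or 2 (15.4%) and without non-label-retaining repeat 1 (17.1%) or 4 (9.11%). The median gene had a share 19.4 points higher in label-retaining cells, and 6.32 points higher after thinning. Differences of 34.0, 40.4 and 27.4 points put Rgs2, Rgs10 and Rgs20 above that median, Rgs18 with 19.9 points was near it and Rgs1 with 9.03 points below. After thinning Rgs2 (21.3 points) and Rgs10 (25.6 points) were above the median of all genes, and Rgs18 (4.37), Rgs20 (2.23) and Rgs1 (-5.48) were below it. At 100 CPM or more 0 Rgs genes were free of overlap, against 2.32% of all genes, and after thinning 0, against 4.61%.

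**Figure D3:**
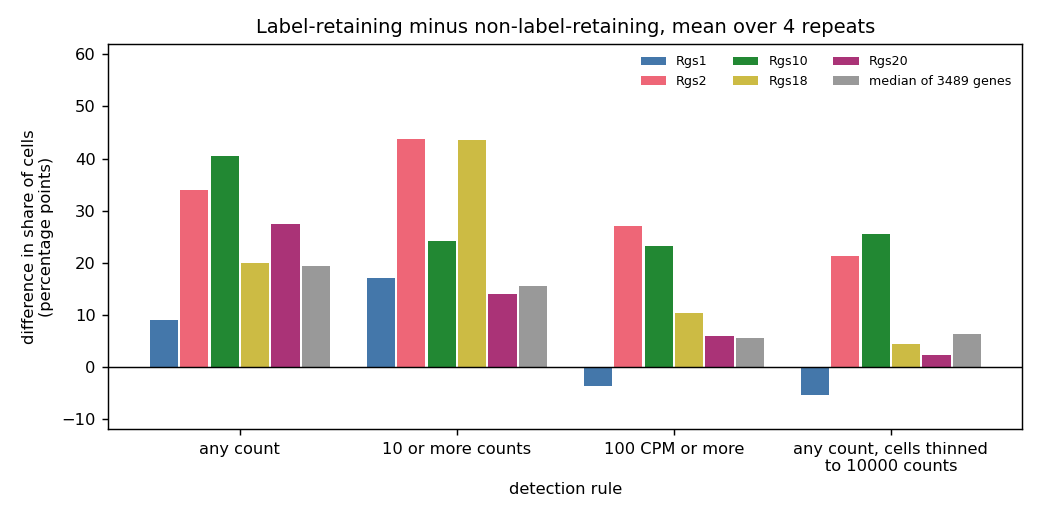
Difference in the share of cells in which each gene counts as detected, label-retaining minus non-label-retaining, in percentage points over the mean of 4 repeats, under 4 detection rules. Coloured bars are the 5 Rgs genes and grey bars the median of 3489 genes. Rgs2 and Rgs10 exceed the grey bar under all 4 rules, and Rgs1 turns negative at 100 CPM or more (-3.75) and after thinning (-5.48).

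The same genes were then tested on 8 sums of counts, 1 for each group in each repeat, with edgeR's quasi-likelihood test. It called 0 of 2786 genes (0%) at an adjusted p under 0.05, although at an unadjusted p under 0.05 label-retaining sums were higher for 180 genes and lower for 122 (4.38%), Rgs20 among the latter (unadjusted p = 0.0357), and DESeq2 called 11 genes (0.395%). No Rgs gene was among those 11, and DESeq2 gave no adjusted p for Rgs18 and Rgs20. Rgs14 and Rgs16 were too low to be tested. The log2 fold changes, label-retaining over non-label-retaining, were 1.65 ± 2.31 (SE) for Rgs2 (adjusted p = 0.721) and 0.77 ± 2.01 for Rgs10 (0.838). For Rgs1 the value was -0.61 ± 2.28 (adjusted p = 0.876), for Rgs18 -4.99 ± 2.65 (0.474) and for Rgs20 -5.71 ± 2.72 (0.433). With total counts in place of TMM, Rgs1 turned to 1.29, while Rgs18 was at -2.17 and Rgs20 at -3.39. With the replicate block Rgs18 was at -1.65 and Rgs20 at -3.21. The median of all genes was 1.15 with TMM scaling and 1.78 with total counts, and Rgs2 was the only member above it under both.

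Behind both large negative values, a single cell held most of the counts of the highest sum. Rgs20 was at 4881 CPM in the TMM-scaled sum of non-label-retaining repeat 3 and between 0.321 and 79.1 CPM in the 7 other sums. Without that repeat its log2 fold change was -0.02, and without cell 15 alone it fell below the filter for testing. Rgs18 was at 33922 CPM in the TMM-scaled sum of non-label-retaining repeat 4 (7290 CPM unscaled, with a TMM factor of 0.223), and its log2 fold change was -2.29 without that repeat, about as far from -4.99 as with total counts. On the mean over cells of log2(CPM + 1), where 1 cell weighs less, limma gave 0.79 for Rgs18 and 0.64 for Rgs20 (adjusted p = 0.763 and 0.816), the opposite direction. For Rgs2 it gave 3.32 (adjusted p = 0.360). Rgs10 turned from 0.77 to -0.95 in the edgeR fit without the cells that shared content.

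**Figure D4:**
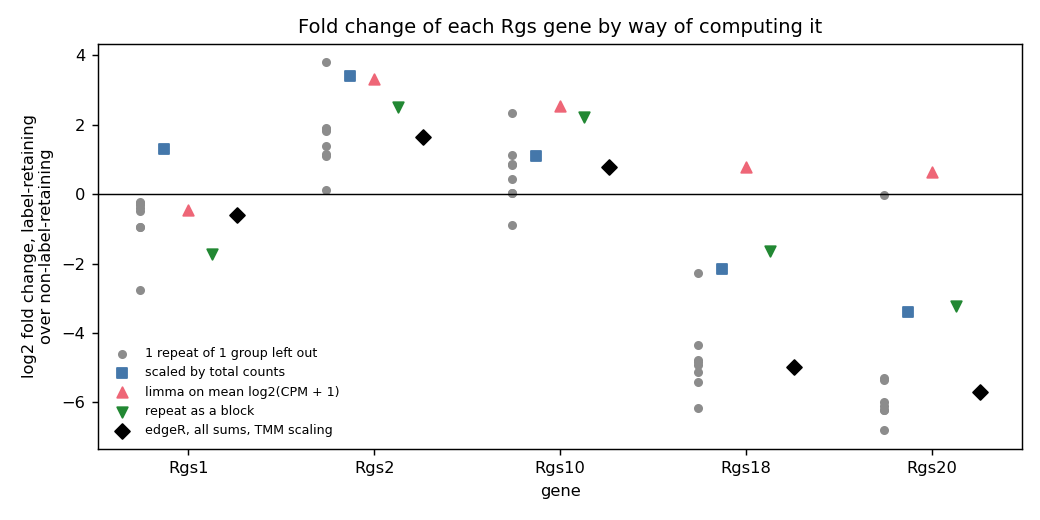
Log2 fold change of each Rgs gene, label-retaining over non-label-retaining, by way of computing it. Black diamonds are the edgeR fit of all 8 sums with TMM scaling, grey points the same fit with 1 repeat of 1 group left out, and the other symbols another scaling, a repeat block or limma on means of log2(CPM + 1). Rgs2 is above 0 in every fit shown, and Rgs18 and Rgs20 are below 0 in all but the limma fit (0.79 and 0.64).

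Levels between genes were compared per kilobase of exon. In label-retaining cells the mean CPM per kb was 744 ± 556 (SD, n = 4) for Rgs2, 247 ± 231 for Rgs1, 202 ± 223 for Rgs18, 87.1 ± 94.0 for Rgs10, 15.7 ± 19.0 for Rgs20, 0.0562 ± 0.112 for Rgs16 and 0 for Rgs14. The order in non-label-retaining cells was Rgs18 (680 ± 818), Rgs1 (266 ± 203), Rgs10 (197 ± 389), Rgs2 (169 ± 197) and Rgs20 (98.8 ± 192). In neither group did neighbours among the 5 detected genes differ by more than the larger of their SDs. Cell by cell, Rgs2 had the highest level per kb of the 7 in 11 label-retaining and 3 non-label-retaining cells, and Rgs1 in 8 and 10. Rgs18 led in 8 and 6 cells, Rgs10 in 6 and 2, and Rgs20 in 3 and 4.

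A label-retaining cell held a mean of 3.79 ± 0.626 (SD over 4 repeats) of the 7 Rgs genes and a non-label-retaining cell 2.46 ± 0.547. The repeat means were 4, 4.56, 3.5 and 3.11 against 2.62, 3, 2.5 and 1.7, and label-retaining cells held more in 4 of 4 repeats. The ratio was 1.54, and the ratio of all genes detected per cell was 1.77 (1924 ± 446 against 1090 ± 277). After thinning the difference of 1.34 genes was 0.481. All of Rgs1, Rgs2, Rgs10, Rgs18 and Rgs20 were present together in 13 label-retaining cells and in 0 non-label-retaining ones. The 13 cells were 3, 4, 5 and 1 in repeats 1 to 4, and the 5 of repeat 3 included cells 20, 21, 22 and 23. The number of cells with none of these genes was 1 and 3.

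**Figure D5:**
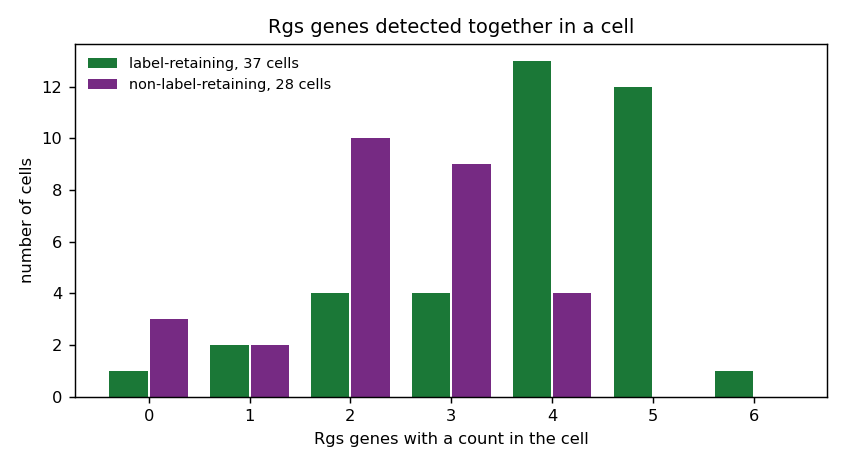
Number of cells by how many of the 7 Rgs genes had a count in the cell. Green bars are the 37 label-retaining and purple bars the 28 non-label-retaining cells. The label-retaining cells peak at 4 genes (13 cells) and 5 genes (12 cells) and 1 holds 6, the non-label-retaining cells at 2 (10 cells) and 3 (9 cells).

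Among the 10 pairs of the 5 genes, the 3 pairs from the chromosome 1 cluster were found together most closely over the 65 cells. The phi coefficient of detection was 0.50 for Rgs1 with Rgs18 (41 cells with both), 0.43 for Rgs1 with Rgs2 (41 cells) and 0.34 for Rgs2 with Rgs18 (34 cells). It was 0.31 for Rgs10 with Rgs18 and 0.29 for Rgs2 with Rgs10, and -0.05 for Rgs18 with Rgs20. With 100 CPM or more as the rule the order was not kept, and Rgs2 with Rgs10 (0.28) lay between the cluster pairs (0.25, 0.32 and 0.24). These are descriptions over cells that share repeats and differ in depth, which touches every gene of a cell. The largest phi a pair can reach also depends on how often each gene is found. Rgs10, found in 22 cells, could not reach as high a value with Rgs1 (53 cells) as genes found about equally often.

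The genes most like each member in detection over 65 cells, among 3488 genes, were the following. Rgs1 was most like the polyubiquitin gene Ubb (phi 0.67), Hspa4 (0.63) and the ribosomal protein gene Rpl19 (0.62). Of their values under 100 counts, 88.5%, 0% and 3.85% were not whole, in that order. Rgs2 was most like Myct1 (0.70), Trim47 (0.62) and the pseudogene Atp6v0c-ps2 (0.61). For Rgs10 they were Ddx3y, a helicase gene of the Y chromosome (0.68), Rab32 (0.58) and Zfp655 (0.57), and for Rgs18 Etnk1 (0.78), Txnl4a (0.76) and the chaperonin subunit gene Cct4 (0.76). Rgs20 was most like Rgs7bp (0.71), Cd22 (0.65) and 4930444P10Rik (0.63), of whose values under 100 counts 41.9%, 60.6% and 74.3% were not whole. Both genes of a pair share the depth of each cell, and the coefficients carry no test.

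The rest of the pathway was read from 7 lists with 140 gene symbols, of which 71 were in the table, 57 had a count and 30 had one in at least 10 cells. Of those 30, 28 had a higher mean share in label-retaining cells, as had 93.4% of all genes. Their median difference was 22.9 points against 19.4 for all genes. The repeat shares of 4 (13.3%, against 8.48% of all genes) did not overlap: the alpha subunit genes Gna15 (18 label-retaining and 4 non-label-retaining cells) and Gnal (12 and 1), and the beta and gamma subunit genes Gnb2 (22 and 3) and Gngt1 (24 and 8). For all 4 the exact permutation p was 0.0286, the smallest possible, with an adjusted p of 0.337 over all genes. At 100 CPM or more 2 of the 30, Gna15 and Gnb2, had shares that did not overlap, against 2.32% of all genes. Gngt1 reached 100 CPM in 0 cells, and 65.6% of its values under 100 counts were not whole. By edgeR 0 of 27 tested genes were called, and their median log2 fold change was 1.08 against 1.15 for all genes.

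Among receptors, Cxcr4 was found in 34 label-retaining and 19 non-label-retaining cells, at a mean of 1777 ± 849 (SD, n = 4) and 778 ± 925 CPM, with 28 and 8 cells at 100 CPM or more. The difference of its mean shares was 21.1 points (exact permutation p = 0.429), near the median of all genes. The thrombin receptor gene F2r had counts in 23 and 9 cells, and Gprc5c in 15 and 6. Cxcr2, found in 37 and 22 cells, had values under 100 counts of which 97.2% were not whole. Ccr1, Ccr2, Ccr7, Adora2b and Hrh2 had no count.

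On the G protein side, Gna11, an alpha subunit gene of the Gq class that Rgs2 acts on, was found in 35 label-retaining and 25 non-label-retaining cells, at 161 ± 96.4 and 218 ± 70.2 CPM. Gnai2, the alpha subunit through which chemokine receptors of blood cells mainly signal, was found in 22 and 11 cells, and Gna13 in 15 and 4. The gamma subunit genes Gngt2 (28 and 12 cells), Gng11 (27 and 13) and Gng12 (18 and 6) were also found. Downstream, the protein kinase A regulatory subunit gene Prkar1a was found in 28 and 20 cells, the small GTPase gene Rap1b in 21 and 19, Creb1 in 22 and 9 and the inositol trisphosphate receptor gene Itpr2 in 19 and 8. For Rap1b the mean share was lower in label-retaining cells, by a difference of -15.8 points that was within the spread between repeats (exact permutation test).

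Of 14 other RGS genes listed, 9 were in the table, and only Rgs9, known from photoreceptors, was found in 10 or more cells (24 label-retaining and 10 non-label-retaining). Of its values under 100 counts 80.6% were not whole. Rgs17 had a count in 6 and 3 cells, Rgs8 in 4 and 1 and Rgs4 in 1 and 1, and Rgs5, Rgs6, Rgs7, Rgs13 and Rgs21 in none. Genes for other proteins with an RGS domain were found as well: Akap10 in 26 and 15 cells, the photoreceptor kinase gene Grk1 in 25 and 11, Arhgef1 in 23 and 5 and Grk2 in 16 and 3. Of their values under 100 counts, 35.1%, 71.0%, 4.76% and 0% were not whole, in that order. Ric8a, a chaperone of alpha subunits, was found in 15 and 2 cells, Pdcl3 in 7 and 3, Arrb1 in 4 and 2 and Ric8b in 5 and 0.

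Markers of other cell types were read beside the Rgs genes. Of 10 megakaryocyte and platelet markers 7 were in the table and 4 had a count. Itgb3 was found in 30 label-retaining and 9 non-label-retaining cells with shares that did not overlap (8.48% of all genes), Vwf in 16 and 8, Itga2b in 11 and 2 and Selp in 1 and 2, while Gp9, Gp6 and Treml1 had no count. The summed level of that list ran from 250 to 1725 CPM over label-retaining and from 1.92 to 479 CPM over non-label-retaining repeats. Its genes did not all go the same way. In mean level Itgb3 (1017 ± 752 and 31.1 ± 45.6 CPM, SD, n = 4) and Itga2b (16.9 and 9.53 CPM) were higher in label-retaining cells. Vwf (76.4 and 126 CPM) and Selp (0.326 and 4.24 CPM) were lower there. The table held 5 of 9 B cell markers, of which 4 had a count, with Ebf1 at 0, and their summed level ran from 0.701 to 5446 and from 1.39 to 3184 CPM. Of the hemoglobin genes, Hba-a1 (36 and 24 cells) and Hbb-bs (31 and 24) were found in most cells, and Hba-a2 in 12 and 14. Hba-a1 reached 100 CPM in 14 and 18 cells, and 61.0% of its values under 100 counts were not whole. Summed levels of the 4 erythroid markers ran from 1427 to 93484 and from 3864 to 31811 CPM. As background, Rgs18 and Rgs10 are expressed by platelets and Rgs1 by B cells; the part of such RNA in the Rgs values was not tested.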

How the data were processed

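RNA from 65 single cells was sequenced. The authors deposited 1 table of estimated counts per gene and cell, which the submitters' processing notes tie to DESeq and the mm10 build. Although the table is named as normalized, its values show no common scale: the sum per cell ran from 86.1 to 20516069. Aligner, counter and annotation: not given in the sources used here. Of 18036 identifiers 16216 matched a RefSeq symbol (GRCm38.p6), and the others held 0.13% of the counts. The table covers part of the genome, so totals are not full library depth.

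CPM is computed here from a cell's total in this table. Counts were summed per repeat and group, rounded, and tested with edgeR 4.0.16 (R 4.3.3; quasi-likelihood test with TMM factors and a robust fit, threshold 0.05 after Benjamini-Hochberg adjustment). This took in the 2786 genes that had a count in 10 or more cells and whose 8 means per cell averaged 10 or more. DESeq2 1.42.0, limma 3.58.1 (pseudocount 1), other scaling, no filter, a replicate block, each repeat left out, thinning (exact hypergeometric expectation at 10000 counts) and other detection thresholds were the alternatives. Shares of cells were compared by an exact two-sided permutation test of 4 against 4 repeat shares. The scripts were tested on simulated data. Repeat numbers come from the labels; same-numbered sums deviated together (correlations 0.55, 0.29, 0.17 and 0.16 for repeats 1 to 4, and 0.32, 0.27, 0.15 and 0.12 without the cells that shared content). As all were over 0.1, the numbers were taken to pair the groups, although sums of repeats 3 and 4 also correlated across numbers (0.15 and 0.10). Without the cells that shared content, label-retaining repeat 4 correlated at 0.128 with non-label-retaining repeat 3, above its 0.12 with repeat 4. For repeats 3 and 4 the correlations therefore do not single out pairing by number. The sign-flip tests and the counts of repeats with a higher share rest on the numbers in the labels. The permutation tests of shares did not use this pairing. An exact sign-flip test of the 4 paired differences gave p = 0.125 for Rgs2, Rgs10 and Rgs18. For Rgs1 and Rgs20 the sign-flip test gave p = 0.25. It cannot go below 0.125 with 4 pairs, so it cannot reach the 0.05 threshold. Nothing says how many animals made up a repeat, so p-values measure the spread between repeats. SMART-Seq v4 marks neither strand nor molecule, and intervals cover counting error only. RefSeq has 2 genes overlapping Rgs20, Gm16041 and Gm17101, whose reads cannot be told apart from it by strand.

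Genes named are the 7 members, up to 4 genes of each pathway list found in the most cells, those whose repeat shares did not overlap, and the 3 genes most like each member in detection. A few others with low or 0 counts, and the marker genes, are named to account for a list. Members and lists were chosen with earlier results of these data known.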

Additional observations from a re-analysis of the deposited data

Results flagged for a closer look

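Over 22 groups of 4 repeat values (shares of cells, mean levels and Rgs genes per cell), a repeat stood far from the other 3 in 3 cases, by the gap to its nearest neighbour relative to the whole range. Chance marks about 1 group in 20 where the values are independent and normally spread. The rate for mean levels, which 1 cell can dominate, was not computed. The mean Rgs1 level in label-retaining repeat 2 was 4103 CPM, against 606 to 1082 CPM in the other repeats. In that repeat 1 cell held 70.7% of the Rgs1 counts, and 6 of 9 cells were at 100 CPM or more. The mean Rgs10 level in non-label-retaining repeat 1 was 1336 CPM, against 0 to 12.9 CPM, and 1 cell held 99.5% of its counts. The mean Rgs20 level in non-label-retaining repeat 3 was 1638 CPM, against 1.91 to 19.0 CPM, and 1 cell held 98.0% of its counts. No share of cells and no number of Rgs genes per cell was marked in this way.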

How the results depend on the processing

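No Rgs gene passed an adjusted test under any alternative run. The number of genes called by edgeR's quasi-likelihood test was 0 with total-count scaling, without a low-count filter, with a replicate block and without any 1 repeat, 0 by limma and 11 by DESeq2; the cause of that difference was not tested. The replicate block changed no call, and the log2 fold change of Rgs2 was 2.52 under it. The count of Rgs genes whose repeat shares did not overlap (0 with all cells and any count) was 1 with 10 or more counts (against 12.2% of all genes). Without the cells that shared content it was also 1 at that threshold (against 14.1%). It was 0 to 1 with a repeat left out (against 9.11% to 17.1% of all genes), and 3 genes were higher in all 4 repeat pairs (29.1% of all genes). The difference in Rgs genes per cell (1.34) was 0.481 after thinning, 0.627 at 100 CPM or more, 0.563 at that threshold without the cells that shared content, and 1.08 to 1.56 with a repeat left out. With a replicate left out, the log2 fold change ran from 0.12 (without label-retaining repeat 4) to 3.80 (without non-label-retaining repeat 3) for Rgs2 and from -0.88 (without label-retaining repeat 3) to 2.35 for Rgs10. Values that changed sign were the log2 fold changes of Rgs1 (1.29 with total counts, 1.06 without a filter), of Rgs10 (-0.95 without the cells that shared content) and of Rgs18 and Rgs20 by limma (0.79 and 0.64). The share difference of Rgs1 did so at -5.48 points after thinning and at -3.75 and -2.86 points at 100 CPM or more with and without the cells that shared content. Mean level differences also changed sign: Rgs1 to 1590 CPM over sums and 358 CPM without cells under 10000 counts, Rgs10 to 128 CPM over sums, and on log2 scales with pseudocounts 1 and 10 Rgs10 to 2.55 and 1.40, Rgs18 to 0.79 and 0.31 and Rgs20 to 0.64 and 0.14. The cause was not tested. Of 90 comparisons of share differences with an alternative, 83 kept direction and side of the 0.05 threshold. The thresholds of 1 or more counts and 100 CPM or more, all sets without the cells that shared content, edgeR and mean levels without cells under 10000 counts, and edgeR without the deepest cell or the cell with most Rgs20 counts were chosen after seeing the data. Cells under 10000 counts limit what a missing count can show.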
